A study of Homo sapiens with 60 samples.

Results

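The highest lead (Pb) dose of a differentiation series, 10 µM, was set against the next lower dose, 1.26 µM, at the last day of collection. The libraries were those titled with day 18 and these doses, 3 per dose, which makes 6 of the 60 libraries of the series. All cells were SH-SY5Y, a human neuroblastoma cell line, with the genotype given as WT, expanded at passage 39 and grown as 1 dish of 15 cm per replicate. The 10 µM group received 10 µM Pb and the 1.26 µM group 1.26 µM Pb from day 5 of a published differentiation protocol up to day 18, and the metal was renewed with the medium every 2 to 3 days. At day 18 there were also 3 dishes with 0 µM and 3 with 0.16 µM Pb, which are given beside both groups as levels only; replicate 1 of 0 µM is one of 2 libraries of the series that are low in long transcripts. Because each group consists of dishes of 1 cell line at 1 passage, the p-values measure the spread between dishes. That spread was estimated within the groups of all 60 libraries, not from these 6 alone. The comparison asks which transcripts set the highest dose apart from the next lower dose at the end of differentiation.

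Lead is a toxic metal that binds thiol groups, takes the place of calcium and zinc in proteins and inhibits heme synthesis. In neurons it is known to disturb calcium signalling, and several of the proteins that retain and fold other proteins in the endoplasmic reticulum (ER) bind calcium. When folding in the ER falls behind, the unfolded protein response raises the transcription of these chaperones through the factors XBP1, ATF6 and ATF4. SH-SY5Y cells are of sympathetic, noradrenergic origin, stop dividing in part when they differentiate, and secrete neuropeptides.

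The libraries held 24.8, 26.8 and 21.1 M reads assigned to genes at 10 µM, and 33.7, 21.5 and 38.1 M at 1.26 µM. The identity of the cells was checked with marker lists. All 12 neuroblastoma markers were at 1 CPM (counts per 1000000 assigned reads) or above, with summed levels of 16706 to 17559 CPM at 10 µM and 17773 to 18383 CPM at 1.26 µM. The lowest of them was TH, at 5.08 to 7.93 CPM at 10 µM and 5.71 to 9.48 CPM at 1.26 µM. Of 10 blood and endothelial markers none reached 1 CPM in any of the 6 libraries, and HBA1, HBA2, HBB, PECAM1 and CDH5 were at 0 in all 6. Among the Schwann cell and glial markers 2 or 3 of 10 reached 1 CPM (sums of 16.3 to 18.3 CPM at 10 µM and 17 to 18.9 CPM at 1.26 µM), with FABP7, OLIG2 and PMP2 at 0. Of the fibroblast markers 5 or 6 of 9 did (311 to 324 CPM at 10 µM and 325 to 358 CPM at 1.26 µM), with TCF21 at 0. Epithelial markers were present too, with 11 of 14 at 1 CPM or above in all 6 libraries. KRT5 was at 28.3 to 36.7 CPM at 10 µM and 28.1 to 35.1 CPM at 1.26 µM, and KRT17 at 27.0 to 33.3 and 27.4 to 31.6 CPM. One library stood apart from its group. Replicate 1 of 1.26 µM differed from replicates 2 and 3 of 1.26 µM with a chi-square per gene of 25.3 and 37.7, whereas the other pairs within a dose had 4.61 to 8.79. Its levels also fell with GC content, by 0.0747 on the log2 scale for 10 percentage points of GC, against slopes between -0.041 and 0.029 in the other 5 libraries. It was kept. Where a named gene's call was lost without it this is said, and for several genes whose difference moved the value without it is given too.

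Of 15263 genes that reached 1 CPM in 3 or more libraries of the series, 1841 (12.1%) were called different between 10 and 1.26 µM at day 18, which means a Benjamini-Hochberg adjusted p under 0.05 in limma's test on log2(CPM + 1) with all 60 libraries in the fit. Of these, 592 (3.88% of the genes tested) were higher and 1249 (8.18%) lower at 10 µM. Each list count below is to be read beside these shares. Differences were mostly small. On the log2(CPM + 1) scale, which understates the fold of low genes, only 36 of the higher and 13 of the lower genes differed by 2-fold or more. The median log2 difference was 0.38 among the higher and -0.41 among the lower genes. The balance of directions depends on the scaling: the median gene lay at -0.06 on the log2 scale, and when each library was rescaled by its median ratio, 893 genes were higher (5.85%) and 756 lower (4.95%; 54.2% higher, against 32.2% without rescaling). With the day 18 libraries alone in the fit the counts were 304 higher (1.99%) and 509 lower (3.33%), and 789 of the 1841 calls were made again in the same direction. Without replicate 1 of 1.26 µM, 529 genes were higher and 1091 lower. Without replicate 2 of 10 µM, 827 were lower.

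**Figure D1:**
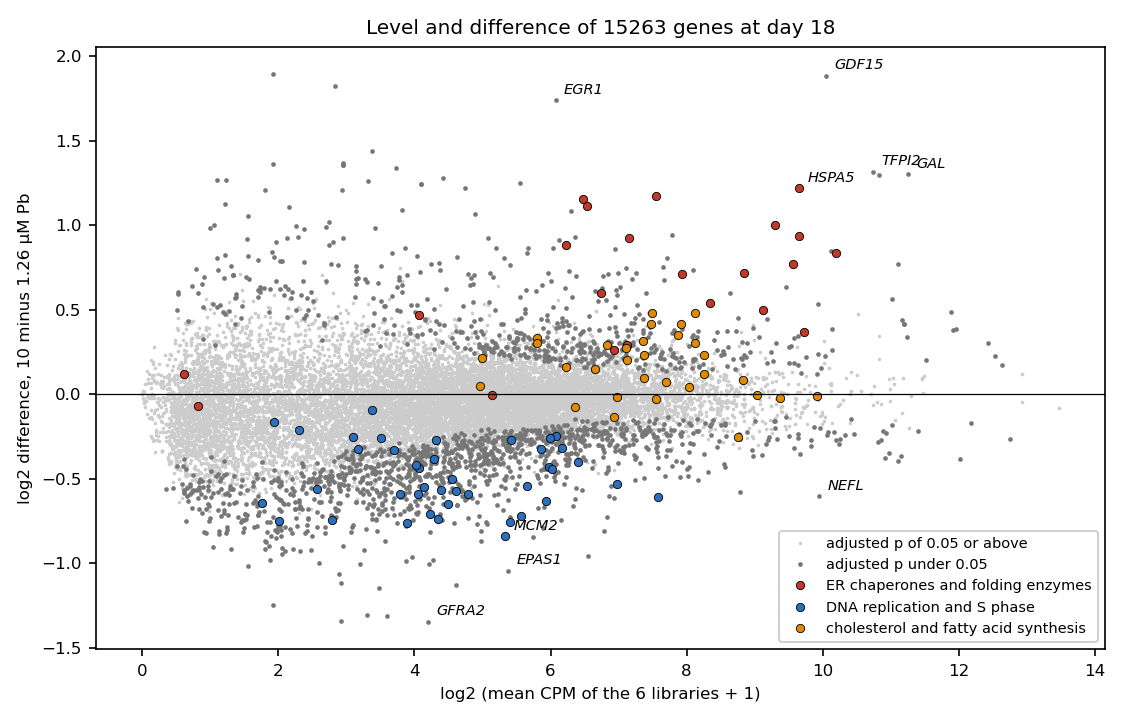
Log2 difference between 10 and 1.26 µM Pb (vertical axis) against the log2 of the mean CPM of the 6 libraries plus 1 (horizontal axis) for the 15263 genes tested. Dark grey points are the 1841 genes called, and coloured points are the members of 3 gene lists. Of the 22 ER chaperones (red) 20 lie above 0, the 41 replication genes (blue) all lie below 0, and genes of cholesterol and fatty acid synthesis (orange) lie on both sides.

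The gene with the smallest p-value of the comparison encodes an ER chaperone, and its list moved with it. Of 22 ER chaperones and folding enzymes, 16 rose at 10 µM and none fell, where 3.88% of all genes tested rose, and the median of the 22 log2 differences was 0.71, against -0.06 for all genes. HSPA5 (BiP), the main HSP70 chaperone of the ER lumen and the sensor-bound brake of the unfolded protein response, had 1128, 1068 and 1185 CPM at 10 µM, and 509.8, 498 and 445 CPM at 1.26 µM. The groups did not overlap, and the log2 difference was 1.22 ± 0.0467 (SE; limma, adjusted p = 4.13e-25), a 2.33-fold ratio of the means. At 0 and 0.16 µM the means were 457 and 485 CPM, so the 1.26 µM level lay beside the lower doses and only the 10 µM dishes stood above them.

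Other members of the list rose as well. HSP90B1 (GRP94), the HSP90 of the ER, averaged 1053 ± 41.6 CPM at 10 µM and 549 ± 31.0 CPM at 1.26 µM (SD, n = 3 each). Among protein disulfide isomerases, which form and rearrange disulfide bonds, PDIA4 had 841, 827 and 853 CPM at 10 µM, against 444, 428 and 384 CPM at 1.26 µM, and PDIA3 averaged 952 ± 14.7 CPM at 10 µM and 557 ± 11.9 CPM at 1.26 µM (log2 difference 0.77 ± 0.0403). The lectin chaperone and calcium store CALR averaged 1507 ± 18.7 CPM at 10 µM and 843 ± 38.8 CPM at 1.26 µM. MANF, a secreted ER stress-responsive survival factor of neurons, had 255, 269 and 252 CPM at 10 µM, and 115, 119 and 108 CPM at 1.26 µM, a log2 difference of 1.17 ± 0.0637 (limma, adjusted p = 1.69e-19). Within each of these genes the 3 dishes of a dose lay close together and the doses were far apart. SDF2L1, a partner of HSPA5, and CRELD2, another secreted ER stress factor, changed by 1.16 ± 0.0824 and 1.11 ± 0.117 on the log2 scale; both were picked out after their values were seen. Without replicate 1 of 1.26 µM the difference of CRELD2 was 0.85. The 6 members that were not called were CANX (956 ± 40.6 CPM at 10 µM and 741 ± 49.6 CPM at 1.26 µM, limma, adjusted p = 0.0969), ERO1B, DNAJC10, ERO1A, FKBP2 and TXNDC5, of which the last pair averaged below 1 CPM at either dose. Summed over the list, the chaperones held 9641, 9388 and 9752 CPM at 10 µM, and 5748, 5674 and 5345 CPM at 1.26 µM. The count stayed at 16 with the day 18 libraries alone, where 1.99% of all genes were called higher, and at 16 without replicate 1 of 1.26 µM.

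The stretches around the gene starts of 5 of the genes that rose are shown because they hold the ER stress response element, the sequence through which the unfolded protein response raises chaperone transcription. It was searched as CCAAT, 9 bases of any kind and CCACG on both strands in a window of 250 bases before and 50 bases after each gene start in RefSeq's GRCh38.p14. The window was available for 21 of the 22 chaperones, and 6 of them held the element (28.6%: HSPA5, HSP90B1, CALR, CANX, CRELD2 and ERO1B), against 22 of all 27305 promoters (0.0806%) and 15 of the 11976 promoters of genes tested (0.125%). Capitals mark the matches, which are the reverse complement of the element where they begin with CGTGG.
HSPA5, chr9:125241294-125241593, minus strand, match at -66 from the gene start: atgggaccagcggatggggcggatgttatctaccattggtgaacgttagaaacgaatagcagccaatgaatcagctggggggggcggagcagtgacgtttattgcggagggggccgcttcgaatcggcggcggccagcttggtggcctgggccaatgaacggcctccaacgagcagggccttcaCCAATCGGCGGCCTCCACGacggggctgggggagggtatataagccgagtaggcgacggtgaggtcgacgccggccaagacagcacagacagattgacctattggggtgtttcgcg
HSP90B1, chr12:103930160-103930459, plus strand, matches at -194 and, reversed, at -89: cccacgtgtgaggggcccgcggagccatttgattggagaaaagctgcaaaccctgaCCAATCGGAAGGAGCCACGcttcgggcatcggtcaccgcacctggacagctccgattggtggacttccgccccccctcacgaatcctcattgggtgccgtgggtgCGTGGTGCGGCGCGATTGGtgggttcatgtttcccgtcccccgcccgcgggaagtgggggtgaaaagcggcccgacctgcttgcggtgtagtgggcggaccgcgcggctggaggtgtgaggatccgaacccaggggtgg
CALR, chr19:12938359-12938658, plus strand, reversed match at -225: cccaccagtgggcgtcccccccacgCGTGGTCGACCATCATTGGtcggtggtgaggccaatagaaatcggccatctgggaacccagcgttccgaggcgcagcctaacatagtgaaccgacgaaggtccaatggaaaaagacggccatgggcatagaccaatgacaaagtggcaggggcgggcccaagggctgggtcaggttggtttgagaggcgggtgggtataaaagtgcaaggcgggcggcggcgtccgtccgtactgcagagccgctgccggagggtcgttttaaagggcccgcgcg
CRELD2, chr22:49918384-49918683, plus strand, reversed match at -80: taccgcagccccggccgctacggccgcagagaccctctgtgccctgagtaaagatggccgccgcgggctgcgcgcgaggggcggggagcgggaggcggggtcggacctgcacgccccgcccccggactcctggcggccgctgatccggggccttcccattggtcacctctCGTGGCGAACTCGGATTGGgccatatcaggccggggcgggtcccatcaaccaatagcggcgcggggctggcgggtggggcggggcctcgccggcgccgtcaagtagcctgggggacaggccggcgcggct
XBP1, chr22:28800520-28800819, minus strand, match at -52: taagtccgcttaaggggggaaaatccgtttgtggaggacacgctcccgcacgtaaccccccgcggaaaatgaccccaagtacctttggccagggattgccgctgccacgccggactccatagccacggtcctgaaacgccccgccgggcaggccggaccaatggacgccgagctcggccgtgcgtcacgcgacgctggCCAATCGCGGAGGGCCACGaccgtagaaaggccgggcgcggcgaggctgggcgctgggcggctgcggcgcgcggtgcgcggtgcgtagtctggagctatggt
Of the 6 chaperones with the element, HSPA5, HSP90B1, CALR and CRELD2 rose and CANX and ERO1B were not called. PDIA4 and MANF rose without a match to these letters in the window, and of the whole list 16 of 22 rose. The element is a known feature of chaperone promoters, so its share in this list is no result of these data. Whether it bears on the rise was not tested. In the list of ER stress sensors and ER-associated degradation, XBP1 alone of 20 genes with a window held the element (5%).

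Among the sensors of ER stress and the genes of ER-associated degradation, which removes misfolded proteins to the proteasome, 10 of 22 rose and none fell (7 with the day 18 libraries alone). XBP1, the factor whose mRNA is spliced by the sensor IRE1, had 269, 263 and 261 CPM at 10 µM, and 135, 164 and 153 CPM at 1.26 µM (log2 difference 0.81 ± 0.0575; limma, adjusted p = 2.82e-15). HERPUD1, a membrane organiser of ER-associated degradation, averaged 101 ± 2.71 CPM at 10 µM and 62.3 ± 6.83 CPM at 1.26 µM, and DERL2, a channel component, 87.1 ± 4.91 CPM at 10 µM and 65.3 ± 3.96 CPM at 1.26 µM. The transcripts of the 3 sensors themselves, looked at after the other values were seen, were not called: ERN1 (IRE1) averaged 14.2 ± 1.72 CPM at 10 µM and 15.3 ± 1.10 CPM at 1.26 µM, EIF2AK3 (PERK) 16.2 ± 2.41 CPM at 10 µM and 14.9 ± 2.59 CPM at 1.26 µM, and ATF6 87.6 ± 9.31 CPM at 10 µM and 86.4 ± 3.03 CPM at 1.26 µM. In the list of ATF4 and amino acid response genes, the branch downstream of PERK, 2 of 24 rose and 3 fell (1 and 2 with the day 18 libraries alone). For comparison, 3.88% of all genes tested rose and 8.18% fell. DDIT3 (CHOP) averaged 35.1 ± 1.62 CPM at 10 µM and 25.5 ± 2.11 CPM at 1.26 µM (limma, adjusted p = 0.00151, above 0.05 with the day 18 libraries alone), and ATF3 32.6 ± 2.81 CPM at 10 µM and 23.9 ± 0.459 CPM at 1.26 µM. The serine synthesis enzyme PHGDH was lower at 10 µM, with 172 ± 5.14 CPM at 10 µM and 205 ± 11.5 CPM at 1.26 µM, a call that is lost with rescaling and without replicate 1 of 1.26 µM. Of 20 cytosolic heat shock genes 2 rose (BAG3 and DNAJA1) and none did with the day 18 libraries alone, and the median of the list was 0.09. After rescaling 4 rose, where 5.85% of all genes did, and the median was 0.16. The log2 difference of BAG3 was 0.53 with all libraries and 0.26 without replicate 1 of 1.26 µM, where it was not called (limma, adjusted p = 0.288).

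**Figure D2:**
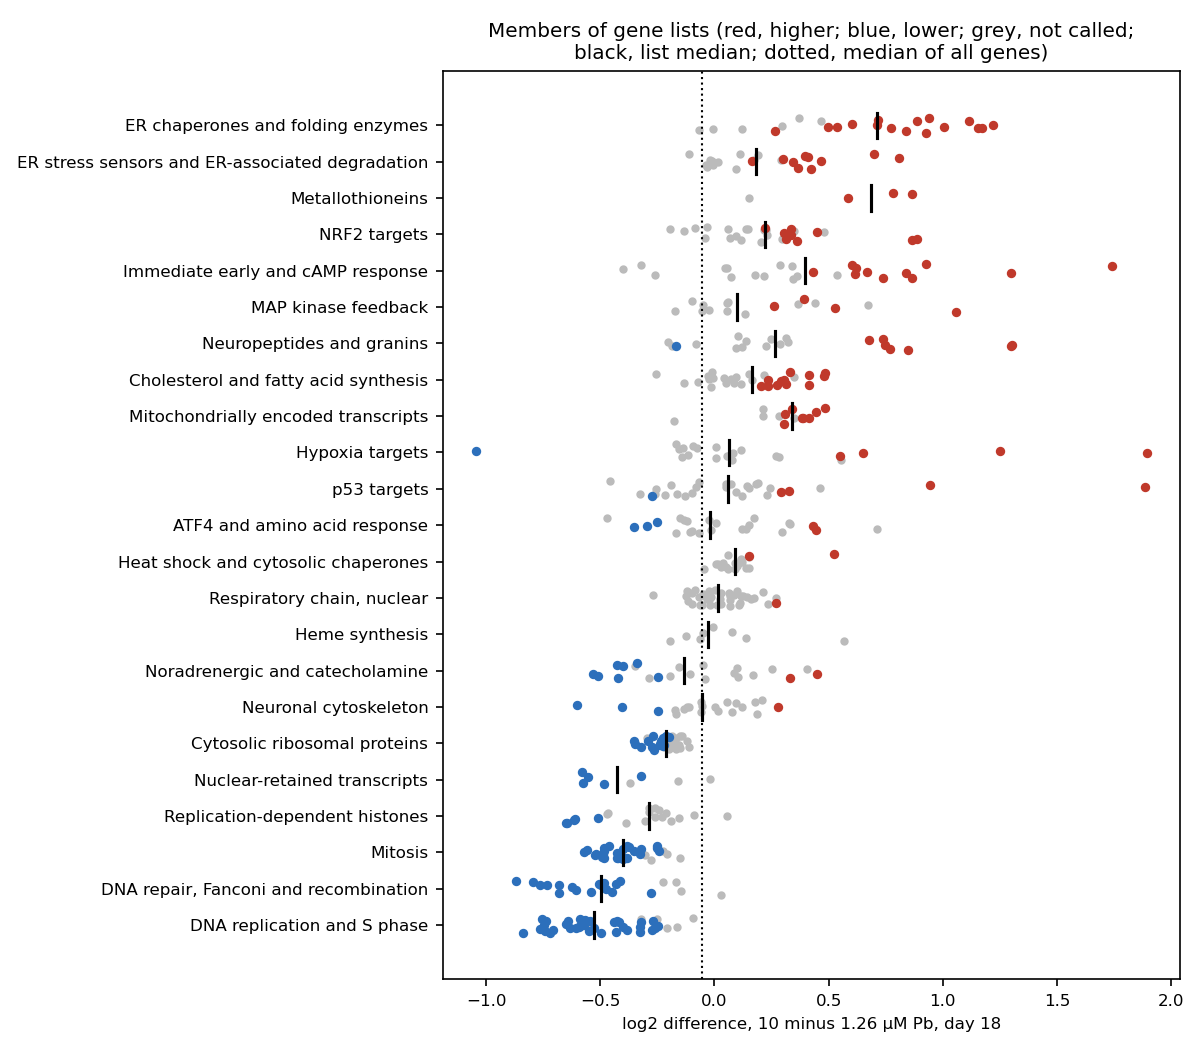
Log2 difference between 10 and 1.26 µM Pb at day 18 for the tested members of 23 gene lists (points), with red for members called higher, blue for members called lower and grey for those not called. Black bars are list medians and the dotted line is the median of all genes, -0.06; ER chaperones have a median of 0.71 and replication genes one of -0.53.

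Genes with single large rises were led by secreted proteins. GDF15, a stress-induced cytokine of the TGF-beta superfamily and a p53 and ATF4 target, had 1738, 1757 and 1506 CPM at 10 µM, against 398, 501 and 454 CPM at 1.26 µM, a 3.7-fold ratio and a log2 difference of 1.89 ± 0.105 (limma, adjusted p = 4.01e-19). TFPI2, an inhibitor of serine proteases that is laid down in the extracellular matrix, had 2386, 2399 and 2547 CPM at 10 µM, and 1068, 975 and 902 CPM at 1.26 µM, a 2.49-fold ratio. At 0 and 0.16 µM GDF15 averaged 360.1 and 436 CPM and TFPI2 819 and 893 CPM, so in both genes the 1.26 µM dishes again sat with the lower doses. ECM1, a secreted matrix glycoprotein, was at a far lower level, with 10.3, 9.93 and 9.88 CPM at 10 µM, and 2.79, 1.95 and 1.71 CPM at 1.26 µM. STC1, a secreted hormone that regulates calcium and phosphate in fish and responds to hypoxia in mammals, had 5.09, 5.12 and 4.65 CPM at 10 µM, and 0.415, 0.511 and 0.919 CPM at 1.26 µM. Its 8.05-fold ratio rests on few reads at 1.26 µM, where 3 reads correspond to at least 0.0788 CPM. INHBA, which forms activins, averaged 134 ± 3.62 CPM at 10 µM and 82.4 ± 8.54 CPM at 1.26 µM, and ID3, an inhibitor of differentiation induced by BMP signals, 25.7 ± 2.24 CPM at 10 µM and 16.3 ± 1.11 CPM at 1.26 µM. SOX2, a transcription factor of neural progenitors, had 19.7, 19.0 and 13.9 CPM at 10 µM, and 2.96, 8.87 and 8.80 CPM at 1.26 µM. Its log2 difference was 1.34 ± 0.216 with all libraries and 0.90 without replicate 1 of 1.26 µM (limma, adjusted p = 0.00124). The long noncoding RNAs FAM30A and LINC00511 were also among the 10 largest rises, at 10.1 CPM each at 10 µM and at 3.30 and 3.38 CPM at 1.26 µM. LINC00511 and its neighbour LINC00673 on chromosome 17 have the same value in each library, so the reads of the pair cannot be assigned to either. KRT86, a hair keratin with near-identical paralogs, averaged 14.1 ± 0.667 CPM at 10 µM and 4.67 ± 1.34 CPM at 1.26 µM. Its log2 difference was 1.44 with all libraries and 1.61 without replicate 1 of 1.26 µM. Epithelial markers reached 1 CPM for 11 of 14 genes in all 6 libraries, with sums of 134 to 150 CPM at 10 µM and 124 to 157 CPM at 1.26 µM. KRT1 was at 0, and the part of these markers in the KRT86 result was not tested.

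**Figure D3:**
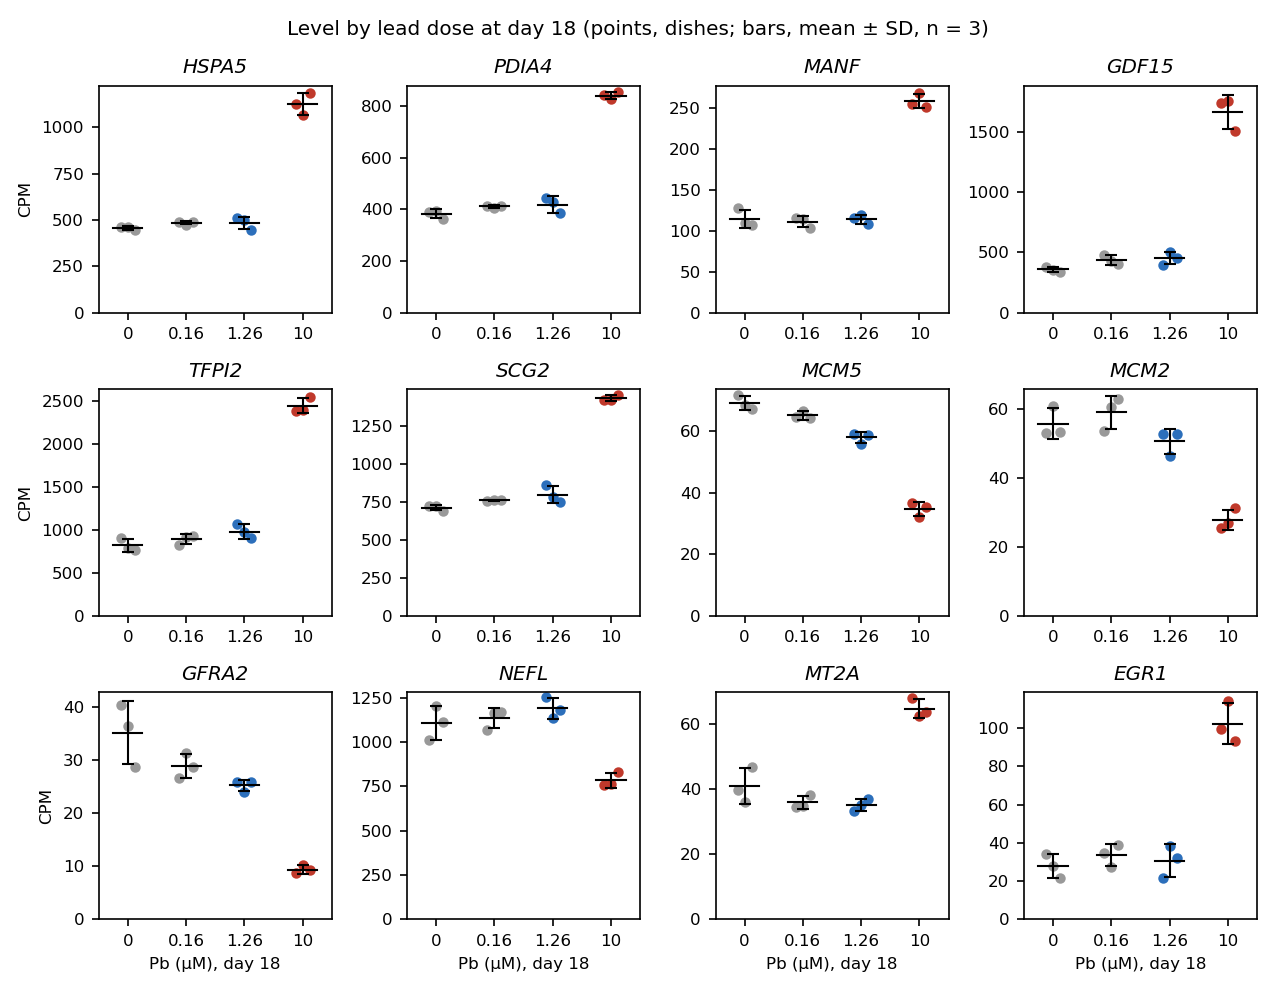
CPM at day 18 (vertical axes, from 0) by Pb dose in µM (horizontal axes) for 12 genes; points are single dishes and bars the mean ± SD (n = 3). For HSPA5, PDIA4, MANF, GDF15, TFPI2, SCG2 and EGR1 the 10 µM dishes lie above all 9 others, and for MCM5, MCM2, GFRA2 and NEFL below all 9.

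Signalling genes that respond within minutes to calcium, cAMP or growth factors were higher at 10 µM. The list of immediate early genes and cAMP targets had 24 genes, of which 11 rose and none fell, with a median of 0.40, and 9 rose with the day 18 libraries alone. EGR1, a zinc finger factor of this class, had 99.3, 114 and 93.2 CPM at 10 µM, and 21.3, 38.3 and 32 CPM at 1.26 µM, a 3.35-fold ratio (limma, adjusted p = 2.39e-10). Its log2 difference was 1.74 with all libraries and 1.51 without replicate 1 of 1.26 µM, the lowest of its group. JUNB, a subunit of the factor AP-1, had 154, 157 and 140.2 CPM at 10 µM, against 97.2, 97.0 and 98.2 CPM at 1.26 µM. FOS, another AP-1 subunit, averaged 17.7 ± 1.53 CPM at 10 µM and 9.28 ± 0.578 CPM at 1.26 µM, and CREM, a cAMP-responsive factor, 77.8 ± 2.37 CPM at 10 µM and 48.6 ± 3.05 CPM at 1.26 µM. The groups did not overlap in any of these 4 genes, while genes whose groups did not overlap made up 8.57% of all genes in the higher and 20.8% in the lower direction. Of 16 feedback genes of the MAP kinase pathway 4 rose (5 with the day 18 libraries alone). Among them the phosphatase DUSP6 averaged 571 ± 9.05 CPM at 10 µM and 436 ± 16.6 CPM at 1.26 µM, and the inhibitor SPRY4 181 ± 3.05 CPM at 10 µM and 126 ± 11.8 CPM at 1.26 µM. Of 16 NF-kB targets and chemokines none passed in limma, edgeR or DESeq2, with 1 higher and 1 lower at an unadjusted p under 0.05.

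Neuropeptide genes and those of their secretory granules differed in part. Of 20 such genes 7 were higher (6 with the day 18 libraries alone), where 3.88% of all genes were, 12 were not called and 1, the granin CHGB, was lower, a call that is lost without replicate 1 of 1.26 µM; after rescaling 8 were higher and none lower. SCG2 (secretogranin II), a granule protein and peptide precursor, had 1421, 1414 and 1450.2 CPM at 10 µM, and 857, 783 and 746 CPM at 1.26 µM (log2 difference 0.85 ± 0.0473; limma, adjusted p = 4.01e-19). NPY, a peptide co-released with noradrenaline, had 2863, 2886 and 2558 CPM at 10 µM, and 1688, 1613 and 1567 CPM at 1.26 µM, with 1141 and 1253 CPM on average at 0 and 0.16 µM. GAL, the precursor of galanin, had 3504, 3984 and 2836 CPM at 10 µM, and 859, 1764 and 1736 CPM at 1.26 µM. The low replicate 1 of 1.26 µM widens the GAL difference: it was 1.30 ± 0.140 on the log2 scale with all libraries and 0.96 without that replicate, with the groups apart in either case. VGF, another granule peptide precursor that was picked out after its values were seen, had 2582, 2786 and 2184 CPM at 10 µM, and 553, 1367 and 1389.7 CPM at 1.26 µM, and its log2 difference was 1.30 with all libraries and 0.86 without the same replicate. VIP averaged 172 ± 3.18 CPM at 10 µM and 102 ± 7.84 CPM at 1.26 µM. The neuropeptide list summed to 16630, 17378 and 15657 CPM at 10 µM, and to 10191, 12404 and 12464 CPM at 1.26 µM.

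Lists of defence against oxidants and metals differed from one another. Of 27 targets of NRF2, the factor that answers electrophiles, 9 rose and none fell with a median of 0.22, but only 4 rose with the day 18 libraries alone. NQO1, a quinone reductase, had 46.3, 46.7 and 46.0 CPM at 10 µM, and 29.1, 23.4 and 22.9 CPM at 1.26 µM (log2 difference 0.86 ± 0.109; limma, adjusted p = 5.3e-08). The pentose phosphate enzyme TKT changed by 0.34 ± 0.0580 on the log2 scale. HMOX1, the heme oxygenase that is a usual readout of metal stress and was looked up after the values were seen, had 7.03, 6.53 and 6.17 CPM at 10 µM, and 9.1, 7.2 and 6.88 CPM at 1.26 µM, which overlap (limma, adjusted p = 0.497). Of 23 antioxidant enzymes 4 rose and 1 fell with a median of 0.05, and with the day 18 libraries alone 1 rose and none fell. Of 23 zinc and divalent metal transporters none rose and 1 fell, and none was called with the day 18 libraries alone. After rescaling 5 of the antioxidant enzymes and 1 of the transporters rose, and none of either list fell. Among all genes tested 3.88% rose and 8.18% fell, and 5.85% and 4.95% after rescaling. Metallothioneins, small cysteine-rich proteins that bind metals, had 4 of 10 genes above the filter, of which 3 rose (2 with the day 18 libraries alone). MT2A had 67.9, 62.4 and 63.6 CPM at 10 µM, and 33.2, 35.1 and 36.8 CPM at 1.26 µM, a log2 difference of 0.87 ± 0.123 (limma, adjusted p = 8.55e-07). MT1E averaged 5.57 ± 1.29 CPM at 10 µM and 2.78 ± 0.436 CPM at 1.26 µM, and MT1X 4.09 ± 0.846 CPM at 10 µM and 2.39 ± 0.526 CPM at 1.26 µM; MT1X was not called with the day 18 libraries alone or without replicate 2 of 10 µM. MT1F averaged 10.9 ± 1.51 CPM at 10 µM and 9.71 ± 0.537 CPM at 1.26 µM and was not called. The MT1 genes are near-identical copies, so that the split of reads between them is uncertain. Of 8 heme synthesis genes none passed in limma, edgeR or DESeq2 (1 higher and 1 lower at an unadjusted p under 0.05). ALAD, the enzyme that lead inhibits most directly, averaged 29.9 ± 5.40 CPM at 10 µM and 32.4 ± 2.86 CPM at 1.26 µM, and FECH, which inserts the iron, 49.4 ± 2.73 CPM at 10 µM and 51.5 ± 1.29 CPM at 1.26 µM. Of 11 genes of iron handling none passed in limma, with 1 higher at an unadjusted p under 0.05 and 1 higher in edgeR and in DESeq2. Among 28 p53 targets 4 rose and 1 fell. With the day 18 libraries alone 3 rose and none fell, and after rescaling 6 rose and none fell. Beside GDF15, the kinase PLK2 rose, with 288 ± 16.2 CPM at 10 µM and 149.5 ± 8.85 CPM at 1.26 µM. The cell cycle inhibitor CDKN1A also rose, with 373 ± 12.3 CPM at 10 µM and 298 ± 5.16 CPM at 1.26 µM.

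Among lipid synthesis and energy genes the lists differed in direction. Of 31 genes of cholesterol and fatty acid synthesis 13 rose and none fell (median 0.16), and 9 rose with the day 18 libraries alone. SQLE, squalene epoxidase, had 201, 196 and 209.8 CPM at 10 µM, and 157, 152 and 145 CPM at 1.26 µM (log2 difference 0.42 ± 0.0563; limma, adjusted p = 3.11e-07). HMGCS1, which makes HMG-CoA, averaged 323 ± 8.96 CPM at 10 µM and 231 ± 12.1 CPM at 1.26 µM. Of 13 transcripts encoded by the mitochondrial genome 8 rose and none fell, and 5 rose without replicate 2 of 10 µM. ND4, a subunit of complex I, had 4399.8, 4785 and 3989 CPM at 10 µM, and 3236, 3000.3 and 3154 CPM at 1.26 µM. The 13 transcripts summed to 25637, 27726 and 23013 CPM at 10 µM, and to 20274, 19003 and 19846 CPM at 1.26 µM. Of 40 nuclear genes of the respiratory chain 1 rose and none fell. Of 19 glycolysis genes none rose and 4 fell, 1 with the day 18 libraries alone and 0 after rescaling. PFKFB3, a regulator of glycolysis in the list of hypoxia targets, had 66.2, 64.3 and 63.6 CPM at 10 µM, and 26.5, 27.5 and 25.9 CPM at 1.26 µM, whereas EPAS1 (HIF-2 alpha) in the same list fell, with 25.9, 26.1 and 26.0 CPM at 10 µM, and 48.4, 53.8 and 62.6 CPM at 1.26 µM. In that list 4 of 22 rose and 1 fell, also with the day 18 libraries alone.

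The lower side of the comparison was led by genes of cell division. Of 41 genes of DNA replication and S phase 34 fell at 10 µM and none rose, where 8.18% of all genes tested fell, and their median was -0.53. The 6 subunits of the MCM helicase, which unwinds DNA at replication forks, all fell. MCM5 had 36.8, 32.3 and 35.2 CPM at 10 µM, and 59.1, 55.8 and 58.9 CPM at 1.26 µM (log2 difference -0.72 ± 0.0537; limma, adjusted p = 1.3e-14). MCM2 had 25.6, 27.0 and 31.2 CPM at 10 µM, against 52.7, 46.5 and 52.8 CPM at 1.26 µM, and MCM7 144, 149 and 158 CPM at 10 µM, against 234, 227 and 227 CPM at 1.26 µM. Means at 0 and 0.16 µM were 69.1 and 65.1 CPM for MCM5 and 279 and 257 CPM for MCM7. Both genes were thus lowest at 10 µM, with 1.26 µM next. RRM2, the ribonucleotide reductase subunit made in S phase, averaged 46.7 ± 0.997 CPM at 10 µM and 73.0 ± 3.25 CPM at 1.26 µM, and TK1, thymidine kinase, named after its values were seen, 30.6 ± 2.38 CPM at 10 µM and 52.3 ± 4.49 CPM at 1.26 µM. Members that were not called were GINS1, GINS3, GINS4, E2F1, POLA2, CDT1 and CCNE1, each with a negative difference. The count was 22 with the day 18 libraries alone (3.33% of all genes lower) and 29 after rescaling (4.95% of all genes lower). In these bulk libraries fewer dividing cells and less of these transcripts per cell cannot be told apart.

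Promoters of MCM7 and MCM3 are shown because replication genes are classic targets of E2F factors. The E2F motif was searched as TTTCCCGC or TTTGGCGC on both strands in the same windows. It was present in 18 of 36 replication genes with a promoter in the table (50%), against 631 of 27305 promoters (2.31%) and 423 of the 11976 promoters of genes tested (3.53%), and in 1 of 28 mitosis genes (3.57%). Among the 18 replication genes with the motif, CDT1, GINS1, GINS3 and E2F1 were not called, and of the whole list 34 of 41 fell. Because such genes are known targets, the share with the motif is no result of these data. Its part in the fall was not tested. Capitals mark the match.
MCM7, chr7:100101348-100101647, minus strand, reversed match at -187: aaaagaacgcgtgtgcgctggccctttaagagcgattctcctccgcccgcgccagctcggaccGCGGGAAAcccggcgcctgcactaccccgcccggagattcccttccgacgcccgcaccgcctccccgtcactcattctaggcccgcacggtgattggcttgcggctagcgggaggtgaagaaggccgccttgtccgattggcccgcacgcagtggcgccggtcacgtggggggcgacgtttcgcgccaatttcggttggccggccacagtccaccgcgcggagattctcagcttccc
MCM3, chr6:52284693-52284992, minus strand, match at -174: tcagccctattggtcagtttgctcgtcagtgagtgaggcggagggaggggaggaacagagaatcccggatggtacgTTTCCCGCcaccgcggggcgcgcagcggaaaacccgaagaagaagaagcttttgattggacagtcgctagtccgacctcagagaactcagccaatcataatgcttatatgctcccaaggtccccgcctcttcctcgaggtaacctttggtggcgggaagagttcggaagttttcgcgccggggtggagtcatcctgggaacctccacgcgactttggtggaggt
MCM3, which the naming rule did not pick, averaged 102 ± 4.49 CPM at 10 µM and 147 ± 4.90 CPM at 1.26 µM.

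Later steps of the cell cycle and DNA repair fell too. Of 33 mitosis genes 27 were lower and none higher with a median of -0.40, and 14 with the day 18 libraries alone. MKI67, the proliferation antigen Ki-67, had 46.4, 48.3 and 43.6 CPM at 10 µM, and 56.1, 71.0 and 74.3 CPM at 1.26 µM. Its log2 difference was -0.52 with all libraries and -0.65 without replicate 1 of 1.26 µM. BIRC5 (survivin) had 49.1, 49.8 and 50.9 CPM at 10 µM, and 70.7, 68.7 and 71.1 CPM at 1.26 µM, and cyclin B1 (CCNB1) averaged 31.2 ± 0.861 CPM at 10 µM and 41.7 ± 0.955 CPM at 1.26 µM. The groups did not overlap in any of the 3, which was also so for 20.8% of all genes tested in the lower direction. Of 21 genes of Fanconi and homologous recombination repair 17 fell and none rose (11 with the day 18 libraries alone). RAD54L, a motor of strand exchange, averaged 7.40 ± 0.562 CPM at 10 µM and 14.4 ± 1.10 CPM at 1.26 µM. Of 20 replication-dependent histone genes 5 fell (3 with the day 18 libraries alone); their transcripts lack poly(A) tails and come from near-identical copies. Of 37 cytosolic ribosomal protein genes 15 fell and none rose with a median of -0.21, but 7 fell with the day 18 libraries alone and 3 after rescaling. RPL4 had 1713, 1782 and 1784 CPM at 10 µM, and 2359.9, 2219.8 and 2155 CPM at 1.26 µM.

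Neuronal and lineage genes moved in both directions. NEFL, the light chain of neurofilaments, had 754, 765 and 828 CPM at 10 µM, and 1254, 1138 and 1178 CPM at 1.26 µM (log2 difference -0.60 ± 0.0565; limma, adjusted p = 2.48e-11), and NEFM, the medium chain, averaged 209 ± 5.99 CPM at 10 µM and 277 ± 10.7 CPM at 1.26 µM. TUBB2A, a neuronal beta tubulin, went the other way, with 795 ± 20.4 CPM at 10 µM and 656 ± 30.1 CPM at 1.26 µM. In the list of the neuronal cytoskeleton 3 of 21 fell and 1 rose, and after rescaling 2 fell and 3 rose. Among all genes tested 8.18% fell and 3.88% rose, the shares beside which this and the next lists stand. Of 22 noradrenergic and catecholamine genes 7 fell and 2 rose (5 and 1 with the day 18 libraries alone). TFAP2B, a transcription factor of the sympathetic lineage, had 239.8, 228 and 239 CPM at 10 µM, and 336, 341 and 331 CPM at 1.26 µM (log2 difference -0.51 ± 0.0446; limma, adjusted p = 2.97e-12). GATA2 averaged 321 ± 10.7 CPM at 10 µM and 433 ± 20.1 CPM at 1.26 µM. The noradrenaline transporter SLC6A2 and the factor HAND1 were lower, by -0.42 and -0.53 on the log2 scale, and by -0.56 and -0.78 without replicate 1 of 1.26 µM; with the day 18 libraries alone neither was called. DBH, the enzyme that makes noradrenaline, was looked up after the values were seen and averaged 7634 ± 174 CPM at 10 µM and 7875 ± 404 CPM at 1.26 µM (limma, adjusted p = 0.745). Of 14 receptors of neurotrophins and GDNF family ligands 3 fell, also with the day 18 libraries alone. GFRA2, the neurturin co-receptor of RET, had 8.64, 10.2 and 9.21 CPM at 10 µM, and 25.9, 24.1 and 25.9 CPM at 1.26 µM, the largest fall of the comparison by the naming rule (log2 difference -1.35 ± 0.114; limma, adjusted p = 1.17e-12). NTRK2 (TrkB), the BDNF receptor, averaged 198 ± 5.84 CPM at 10 µM and 278 ± 12.9 CPM at 1.26 µM, and NGFR 56.2 ± 2.51 CPM at 10 µM and 74.5 ± 10.3 CPM at 1.26 µM (log2 difference -0.39, and -0.51 without replicate 1 of 1.26 µM). In the list of 24 outgrowth genes 4 rose and 3 fell (3 and 1 with the day 18 libraries alone), and its median was -0.08. Of its guidance ligands, SEMA3A was at 49.8 ± 4.03 CPM at 10 µM and 28.2 ± 3.71 CPM at 1.26 µM and SLIT2 at 76.1 ± 3.94 CPM at 10 µM and 52.9 ± 2.96 CPM at 1.26 µM, both called.

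The other large falls were of genes at modest levels and of varied function. DRGX, a homeobox factor of sensory neurons, had 2.59, 3.47 and 3.80 CPM at 10 µM, and 9.07, 9.94 and 10.4 CPM at 1.26 µM. SULF2, which removes sulfates from heparan sulfate, averaged 5.95 ± 1.56 CPM at 10 µM and 16.1 ± 3.00 CPM at 1.26 µM, and the water channel AQP1 4.64 ± 0.156 CPM at 10 µM and 13 ± 1.36 CPM at 1.26 µM. ITPR3, a channel that releases calcium from the ER, had 7.35, 4.67 and 5.79 CPM at 10 µM, and 12.5, 16.3 and 14 CPM at 1.26 µM. The calcium-dependent kinase PRKCA averaged 33.4 ± 2.77 CPM at 10 µM and 20.9 ± 2.07 CPM at 1.26 µM. In the 31 genes of calcium handling 3 rose and 3 fell (2 and 2 with the day 18 libraries alone), where 3.88% of all genes rose and 8.18% fell. Among the falls was CALB1, a calcium-buffering protein, with 29.2 ± 0.498 CPM at 10 µM and 47.6 ± 2.42 CPM at 1.26 µM. RAB27B, a GTPase of vesicle release, averaged 14.4 ± 1.93 CPM at 10 µM and 32.6 ± 2.63 CPM at 1.26 µM. The remaining genes among the 10 largest falls, DPF3, SPON1, EPAS1 and BNC2, had log2 differences of -1.12, -1.07, -1.04 and -1.01. Of the 32 genes with the largest differences or the smallest p-values, at day 18 or in the change between days, 31 had their 10 µM dishes outside the range of all 9 other dishes of day 18. The exception was ITPR3, which averaged 8.85 and 9.80 CPM at 0 and 0.16 µM. For all but SCG2 and CALR the choice already required no overlap with the 1.26 µM dishes, so only the dishes of 0 and 0.16 µM add to this. The share of all genes outside the 9 dishes was not counted. Among 8 nuclear-retained transcripts 5 fell, MALAT1 with 390.2, 314 and 348 CPM at 10 µM, and 545, 457 and 574 CPM at 1.26 µM. Only 2 of them fell with the day 18 libraries alone, and also without replicate 2 of 10 µM or without replicate 3 of 1.26 µM.

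**Figure D4:**
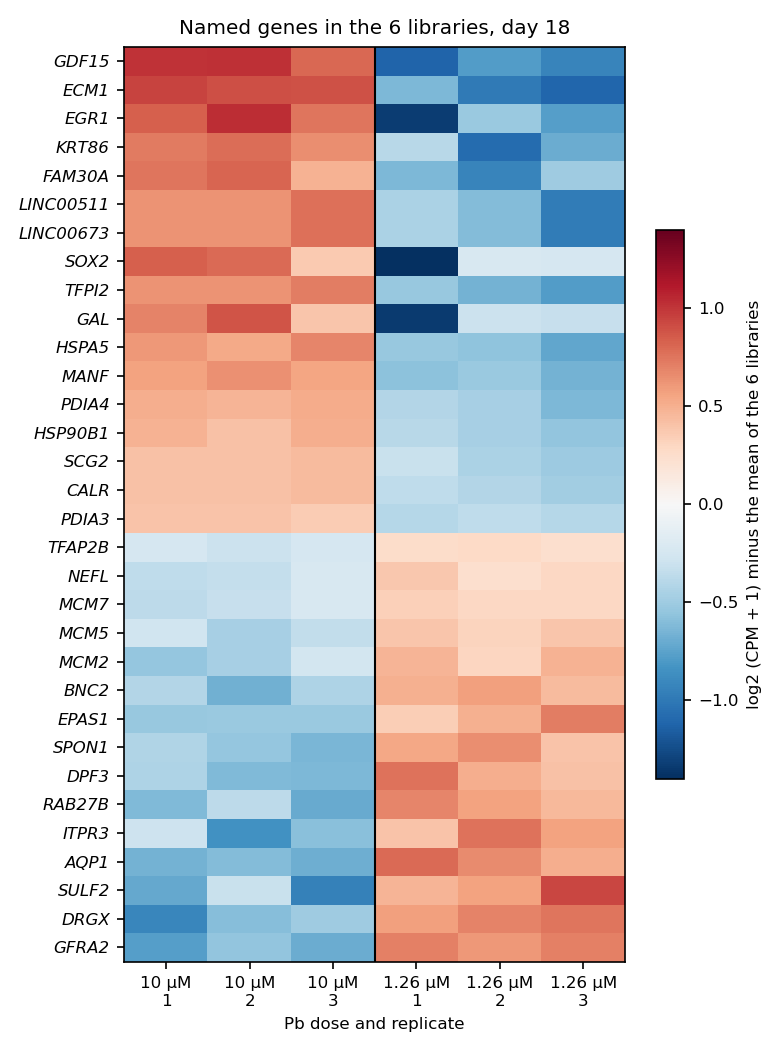
Heat map of log2(CPM + 1) minus the mean of the 6 libraries (colour, from -1.4 in blue to 1.4 in red) in the 3 libraries of 10 µM (left) and the 3 of 1.26 µM (right). Rows are the 32 genes with the largest differences or smallest p-values, at day 18 or in the change between days. Replicate 1 of 1.26 µM is lower than its 2 partners in SOX2, GAL and EGR1.

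The same pair of doses was also sampled at days 12 and 15, in other dishes and in another library pool, so that the difference between the doses can be set beside that of day 18. At day 15 only 26 genes were called (0.17%), 17 higher (0.111%) and 9 lower (0.059%), and at day 12 there were 256 (1.68%), 130 higher (0.852%) and 126 lower (0.826%). Of the 26 genes of day 15, 20 were also called at day 18 and in the same direction (76.9% of the day 15 and 1.09% of the day 18 calls). Of the 256 genes of day 12, 106 were called at day 18 (41.4% of the day 12 and 5.76% of the day 18 calls), 93 of them in the same direction. A direct test of the change of the dose difference between days called 641 genes (4.2%) for day 18 against day 15, 179 with a more positive (1.17%) and 462 with a more negative difference (3.03%) at day 18. Against day 12 it called 995 genes (6.52%), 316 more positive (2.07%) and 679 more negative (4.45%).

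None of the 22 ER chaperones was called at day 15 in limma, edgeR or DESeq2 (1 higher at an unadjusted p under 0.05), with a median of 0.07, and 15 of them had a more positive dose difference at day 18 than at day 15. HSPA5 averaged 1875 ± 45.5 CPM at 10 µM and 2087 ± 54.5 CPM at 1.26 µM at day 12, 1233 ± 79.0 CPM at 10 µM and 1194 ± 42.1 CPM at 1.26 µM at day 15, and 1127 ± 58.9 CPM at 10 µM and 484 ± 34.7 CPM at 1.26 µM at day 18. Its level at 1.26 µM was thus lower at day 18 than at day 15 while that at 10 µM was near the same; because day 18 is a pool of its own, levels across these days cannot be told apart from pools. Replication genes had a median of -0.20 at day 12 with 9 of 41 lower, of 0.00 at day 15 with 1 lower (RRM2), and of -0.53 at day 18. Of 33 mitosis genes 17 were lower at day 12, none called at day 15 in limma (12 lower at an unadjusted p under 0.05, 0 in edgeR and 1 lower in DESeq2) and 27 at day 18. Mitochondrially encoded transcripts were higher at day 12 in 11 of 13 cases, and at day 15 none passed in limma, edgeR or DESeq2 although 11 were higher at an unadjusted p under 0.05.

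A few genes differed between the doses at all 3 days. GDF15 averaged 2463 ± 76.4 CPM at 10 µM and 1795 ± 115 CPM at 1.26 µM at day 12, and 1327 ± 58.2 CPM at 10 µM and 872 ± 69.2 CPM at 1.26 µM at day 15, and its log2 difference was 0.46 at day 12, 0.61 at day 15 and 1.89 at day 18. TFPI2 had log2 differences of 0.35, 0.60 and 1.32 at these days, and STC1 of 0.40, 0.78 and 1.89. MT2A averaged 17.2 ± 1.90 CPM at 10 µM and 11.3 ± 1.78 CPM at 1.26 µM at day 12, and 29.1 ± 3.27 CPM at 10 µM and 13.5 ± 3.09 CPM at 1.26 µM at day 15. Its log2 difference was 0.57, 1.07 and 0.87 at days 12, 15 and 18, and the day 18 minus day 15 test did not pass (-0.21; limma, adjusted p = 0.621).

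**Figure D5:**
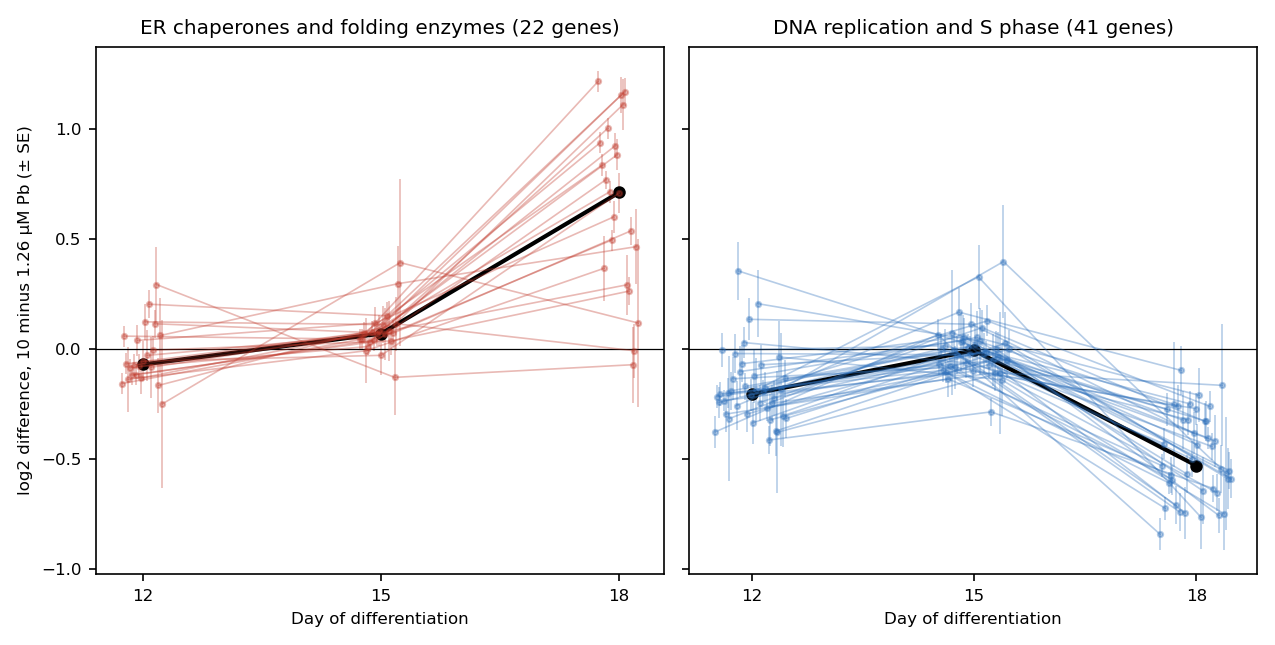
Log2 difference between 10 and 1.26 µM Pb (vertical axis, ± SE) at days 12, 15 and 18 of differentiation (horizontal axis) for 22 ER chaperones (left) and 41 replication genes (right); coloured lines are genes and black lines the list medians. The chaperones have medians of -0.07, 0.07 and 0.71, and the replication genes of -0.20, 0.00 and -0.53.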

How the data were processed

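RNA was taken from dishes of SH-SY5Y cells at days 6, 9, 12, 15 and 18, in 20 groups of day and dose with 3 dishes each. Per the submitters' processing notes, FastQC, MultiQC, STAR, featureCounts and GRCh38 were used; versions and the strand setting are not given in the sources used here. The values deposited by the authors are CPM per gene for 37334 genes and 60 libraries. Dividing each column by the value of 1 read gave whole reads for 100% of values (within 0.01 read), so the depth is known: 21.1 to 38.1 M reads in the 6 libraries compared, where 3 reads equal 0.0788 to 0.142 CPM. Intervals and floors of this kind cover counting error only.

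The filter required 1 CPM in 3 or more libraries and left 15263 genes. limma 3.58.1 (R 4.3.3) was fitted to log2(CPM + 1), with 1 mean per group, 40 residual degrees of freedom and a trend in the variance; fold changes on this scale understate those of low genes. p-values are two-sided, adjusted by Benjamini-Hochberg over all genes kept, with a threshold of 0.05. Tested on simulated data with few changed genes, this fit made more false calls than one with the day 18 libraries alone. The share of false calls among its calls there was above the threshold of 0.05, so the 1841 calls may hold more than that share. Counts of the second fit are therefore given beside most list counts. edgeR 4.0.16 and DESeq2 1.42.0 on the recovered reads were alternatives. The members and lists were chosen with earlier results of these data known. Genes named are the 10 largest rises and falls and the 6 smallest p-values in each direction (called, at least 5 CPM, no overlap). To these were added up to 6 genes with the smallest p-values in each test of day 18 against day 15 or day 12. Up to 4 members per list by p-value and the metallothionein, heme and mitochondrial genes are named too. Others are said to be picked after their values were seen or are markers, list members not called or genes shown for a promoter. RefSeq entries matched 15162 of the kept genes by symbol, and promoter sequences are RefSeq's (GRCh38.p14). In all, 5 motifs were searched, and only the ER stress element and the E2F motif are described above. A cAMP motif was in 3 of 22 immediate early genes and 5 of 20 neuropeptide genes (3.25% of genes tested). A metal motif was in 4 of 4 metallothioneins (38.7% of genes tested), and a sterol motif in 1 of 25 lipid synthesis genes (0.0585% of genes tested).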

Additional observations from a re-analysis of the deposited data

Results flagged for a closer look

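The 32 genes with the largest differences or the smallest p-values all passed the test of whether their dose difference changed between days 15 and 18 (limma interaction, adjusted p under 0.05, all 60 libraries). Of all genes tested 4.2% did. SCG2 and CALR were picked by the tests of change between days themselves. The others were chosen by their day 18 difference, which is part of this test, so their passing is no separate support. The days lie in different library pools, so that day and pool cannot be told apart. The values are the day 18 difference minus the day 15 difference on the log2 scale. Among ER chaperones they were 1.17 for HSPA5, 1.02 for MANF, 0.973 for PDIA4, 0.893 for HSP90B1, 0.762 for CALR and 0.758 for PDIA3. Among secreted and signalling genes they were 1.39 for EGR1, 1.28 for GDF15, 1.15 for GAL, 0.969 for ECM1, 0.772 for SCG2 and 0.723 for TFPI2. Other rises had values of 1.09 for SOX2, 1.04 for KRT86, 0.951 for FAM30A and 1.03 each for LINC00511 and LINC00673.

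On the falling side the MCM genes had -0.907 for MCM2, -0.628 for MCM5 and -0.503 for MCM7. GFRA2 had -1.34 and SULF2 -1.6, the most negative of the 32. Neuronal and lineage genes had -0.373 for NEFL, -0.33 for TFAP2B and -0.895 for DRGX. The remaining falls had -0.928 for AQP1, -0.994 for ITPR3, -1.08 for RAB27B, -0.892 for DPF3, -0.97 for SPON1, -1.12 for EPAS1 and -0.855 for BNC2.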

How the results depend on the processing

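The 1841 genes called at day 18 became 1093 with only the groups compared in the fit (381 higher and 712 lower) and 813 with the day 18 libraries alone (304 higher and 509 lower). The split of directions also differed between alternatives: 893 were higher and 756 lower after median-ratio rescaling, 943 and 767 in DESeq2, 833 and 689 in edgeR, and 884 and 786 with a correction for GC content and transcript length that was chosen after seeing the data. Leaving out each replicate of the groups compared gave 1282 to 1620 genes, 442 to 529 of them higher and 827 to 1091 lower. For the change of the dose difference, the count of 641 against day 15 became 370 with only the groups compared, and ranged from 462 to 613 without single replicates; that of 995 against day 12 ranged from 685 to 959. The 26 genes of day 15 became 54 with no filter, 1 with only the groups compared, 43 without the 2 libraries low in long transcripts and 49 in DESeq2, and 12 to 19 without single replicates. The 256 genes of day 12 became 77 with only the groups compared, 472 without those 2 libraries, and 93 to 321 without single replicates. The cause of these shifts was not tested. Same-numbered dishes of the 2 doses had correlations of 0.0288, 0.170 and -0.161, so the numbers do not pair the samples; the replicate block gave 1841 genes (593 higher and 1248 lower), 1734 of them among the calls without it.

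Of 112 named genes, 87 kept their direction and their side of the threshold in every alternative. Sign changes were seen only in genes that were not called. Without single replicates ATF6 ranged from -0.0681 to 0.075, CCNE1 from -0.398 to 0.0143, EIF2AK3 from -0.0157 to 0.222, ERO1A from -0.13 to 0.0678, FKBP2 from -0.17 to 0.123 and GINS3 from -0.256 to 0.0443. ATF6 was at -0.0681 and -0.00927 on the log2 scale without replicate 3 of 10 µM and without replicate 3 of 1.26 µM, EIF2AK3 at -0.0157 without replicate 1 of 1.26 µM, CCNE1 at 0.0143 without replicate 1 of 10 µM, and GINS3 at 0.0443 without replicate 2 of 10 µM. DBH was at 0.022, 0.0232, 0.025 and 0.0351, and ERO1A at 0.0578, 0.0537, 0.055 and 0.0202, with rescaling, edgeR, DESeq2 and the GC and length correction; ERO1A was also at 0.044, 0.0678 and 0.0443 without replicate 3 of 10 µM, replicate 2 of 1.26 µM and replicate 3 of 1.26 µM. FECH was at 0.00248, 0.00525 and 0.00675 with rescaling, edgeR and DESeq2, and FKBP2 at 0.123, 0.0174 and 0.00572 without replicate 2 of 10 µM, without replicate 1 of 1.26 µM and with the GC and length correction. At this depth, differences in genes near 0.142 CPM or below rest on about 3 reads or fewer.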

Other observations

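Lysosomal and retinoid genes were not described above. Of 26 genes of lysosomes and autophagy 5 rose and none fell (4 with the day 18 libraries alone), where 3.88% of all genes rose. The protease CTSB averaged 427.8 ± 13.7 CPM at 10 µM and 352 ± 7.77 CPM at 1.26 µM (SD, n = 3 each), and the glycoprotein GPNMB 10.2 ± 1.21 CPM at 10 µM and 5.58 ± 0.293 CPM at 1.26 µM. In the list of retinoid response and HOX genes 2 of 18 rose and 4 fell, where 8.18% of all genes fell, but 1 fell with the day 18 libraries alone and 2 after rescaling. CYP26A1, which degrades retinoic acid, averaged 1275 ± 26.5 CPM at 10 µM and 974 ± 55.2 CPM at 1.26 µM, and STRA6, the retinol uptake receptor, 185 ± 10.1 CPM at 10 µM and 142 ± 7.17 CPM at 1.26 µM. MEIS1, a homeobox cofactor of HOX proteins, fell, with 61.2 ± 5.39 CPM at 10 µM and 97.3 ± 5.07 CPM at 1.26 µM.

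Of 23 neuronal ion channel genes 4 fell and 1 rose, where 8.18% of all genes fell and 3.88% rose, but none was called with the day 18 libraries alone. CACNA2D2, a calcium channel subunit, averaged 197 ± 5.97 CPM at 10 µM and 259 ± 13.1 CPM at 1.26 µM, a call that rests on the spread estimated from all days.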
